A study of Sus scrofa with 3 samples.

Results

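The deposited tables of small RNA from pig liver end with a group of hairpins that carried reads but no known miRNA name. These predicted hairpins were taken from the 3 tables, leaving out those on chromosome 6 from 860000 to 880000 and those on the unplaced scaffold that holds mir-483, and rows whose genome windows overlapped on the same strand were joined into 1 place. The rule gave 1640 places from 2025 rows, out of 3059 hairpins in all. Of the rest, 1411 were named miRNA hairpins, 758 of them with a genome place, and 8 were predicted places that the rule left out. The libraries were made from liver of Jinhua pigs, a breed of China, all males, of embryonic day 90 (E90), postnatal day 30 (P30d) or postnatal year 7 (P7y), with 1 library per stage and no treatment at any stage named in the labels. The labels name 3 pigs per stage and do not say whether their RNA was pooled. There were no replicates, so no difference between libraries has a replicate check, and each interval covers counting error of reads or places only. Reads without molecular identifiers are not independent molecules. The 3 tables summed to 9406525 reads (E90), 3775157 reads (P30d) and 9935073 reads (P7y). The liver-defining miRNA miR-122-5p made up 12.8%, 21.4% and 3.79% of the reads of named miRNAs, in that order.

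A miRNA is cut from a hairpin in a longer transcript, first by Drosha in the nucleus and then by Dicer in the cytoplasm. The cuts leave a duplex of 2 arms, 5p and 3p, each with a short 3′ overhang, and 1 arm is kept by an Argonaute protein. The seed, bases 2 to 8 of the mature strand, pairs with target mRNAs. Degraded tRNA, rRNA or repeat transcripts can also fold on paper, so reads from both arms, a fixed 5′ start and a narrow length are the usual marks looked for in a new hairpin.

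The hairpins below are shown because they carried reads on both arms and appeared in all 3 libraries, or because they illustrate how reads lay on a hairpin. Each runs 5′ to 3′ as deposited, with the stretches covered by the representative reads of 1 library in capitals. Positions are those of Sscrofa10.2.
chr5:5388503-5388598 (+): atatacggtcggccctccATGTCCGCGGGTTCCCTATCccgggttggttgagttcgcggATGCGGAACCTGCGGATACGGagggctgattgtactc
chr14:133619330-133619402 (+): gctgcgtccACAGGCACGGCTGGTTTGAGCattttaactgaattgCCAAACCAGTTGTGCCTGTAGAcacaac
chr2:151102722-151102821 (-): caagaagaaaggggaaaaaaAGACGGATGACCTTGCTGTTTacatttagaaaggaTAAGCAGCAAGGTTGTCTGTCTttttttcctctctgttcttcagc
chrX:53138299-53138398 (+): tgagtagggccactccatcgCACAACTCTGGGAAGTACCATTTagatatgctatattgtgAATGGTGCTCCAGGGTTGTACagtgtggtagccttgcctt
chr3:10664417-10664506 (+): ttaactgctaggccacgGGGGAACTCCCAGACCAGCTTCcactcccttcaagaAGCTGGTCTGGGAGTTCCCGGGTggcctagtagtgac
chr14:138325831-138325913 (-): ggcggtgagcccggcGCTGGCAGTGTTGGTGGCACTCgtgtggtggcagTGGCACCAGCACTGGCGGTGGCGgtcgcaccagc
A further set carried reads almost wholly on 1 arm, among them the place that overlaps a miR-26 hairpin on chromosome 13.
chr13:24885253-24885321 (-): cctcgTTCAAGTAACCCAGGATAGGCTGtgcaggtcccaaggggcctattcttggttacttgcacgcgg
chr8:122371900-122371987 (-): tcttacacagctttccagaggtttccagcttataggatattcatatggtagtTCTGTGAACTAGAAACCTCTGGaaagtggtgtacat
chr2:7444698-7444785 (-): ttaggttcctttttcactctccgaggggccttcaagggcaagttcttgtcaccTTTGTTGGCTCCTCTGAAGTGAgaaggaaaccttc
The last pair shows letters of other RNA classes. The chromosome 11 hairpin spells a glutamate tRNA, and the chromosome 16 hairpin holds a stretch known from the large mitochondrial ribosomal RNA.
chr11:22627774-22627869 (+): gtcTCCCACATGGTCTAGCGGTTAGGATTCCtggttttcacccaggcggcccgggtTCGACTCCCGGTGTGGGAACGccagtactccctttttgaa
chr16:40675019-40675275 (-): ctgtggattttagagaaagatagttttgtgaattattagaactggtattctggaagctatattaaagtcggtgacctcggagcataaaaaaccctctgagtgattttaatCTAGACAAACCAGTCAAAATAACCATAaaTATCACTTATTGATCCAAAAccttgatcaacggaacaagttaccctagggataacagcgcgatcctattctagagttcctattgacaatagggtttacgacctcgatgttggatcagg

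Most predicted places appeared in a single library. E90 listed 1206 places, P30d 281 and P7y 377, and 153 of the 1640 places (9.33%, exact Clopper-Pearson 95% interval 7.96 to 10.8) appeared in 2 or 3 libraries. Only E90 listed 1065 of them, only P7y 268 and only P30d 154. All 3 libraries shared 71, and 44 were shared by E90 and P30d, 26 by E90 and P7y and 12 by P30d and P7y. Of the 758 named hairpins with a genome place, 62.5% appeared in 2 or 3 libraries, and of the 224 hairpins of known pig miRNAs, 96.0%. A place that a table does not hold is called not listed, since the tables do not say whether its reads were 0 or were dropped.

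**Figure D1:**
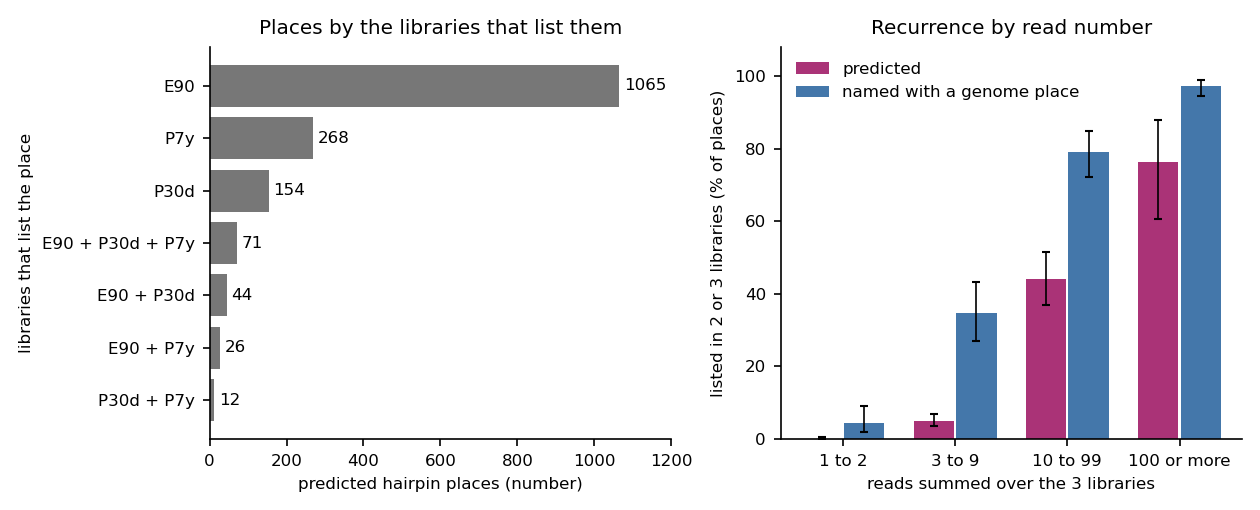
Left, number of predicted hairpin places by the set of libraries that list them, with 1065 places in E90 alone and 71 in all 3. Right, share of places listed in 2 or 3 libraries against the reads summed over libraries, for predicted and named hairpins, with exact 95% intervals; predicted hairpins lie below named hairpins in each class.

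Places with more reads appeared in more libraries. None of the 656 places with 1 to 2 reads summed appeared in more than 1 library, with an exact upper bound of 0.561%, and a place of 1 read could not. The share was 5.04% of 754 places with 3 to 9 reads, 44.1% of 188 with 10 to 99 and 76.2% of 42 with 100 or more. In the same classes of read number the named hairpins recurred more often, at 4.49%, 34.8%, 79.0% and 97.2%. The top class has no upper limit, and its 42 predicted places held 35910 reads where its 288 named hairpins held 22402810. The 2 groups are therefore not matched in depth there. The intervals of predicted and named hairpins did not overlap in any of the 4 classes. The 71 places in all 3 libraries held 29954.5 of the 44852 reads on predicted hairpins, with a median of 77 reads summed against 3 for places of 1 library.

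The libraries differed in how many weakly covered places they listed. The median place held 3 reads in E90, 3 in P30d and 7 in P7y. E90 listed 551 places under 3 reads, P30d 128 and P7y 37. At 10 reads or more the order changed, with 103 places for E90, 64 for P30d and 126 for P7y, and at 100 or more there were 21, 11 and 10. The lowest listed hairpin held 1 read at E90 and P30d and 2 at P7y. The larger number of places at E90 than at P7y, at a similar total, thus lay mainly among places of few reads. Whether the tables were cut at different read numbers was not tested.

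Predicted hairpins were a small part of each library. Of all reads in the E90 table, 15907.5 lay on them (0.169%, 0.167 to 0.172). The P30d table had 14572.5 such reads (0.386%, 0.380 to 0.392), and 14372 lay on them at P7y (0.145%, 0.142 to 0.147). Read numbers can end in a fraction because a read that fits several hairpins was divided among them. Per 1000000 reads of named miRNAs (CPM) this was 1721, 4022 and 1449. P30d was therefore the highest on both scales, and its interval did not overlap the others. Markers of other cell types also differed between the libraries. The leukocyte miRNA miR-142 made up 0.0570%, 0.315% and 0.0714% of named reads and was likewise highest at P30d, while miR-223 was highest at E90 (0.0313%, 0.00513% and 0.00846%) and miR-150 was lowest at E90 (0.000595%, 0.0118% and 0.0103%). The red cell miRNAs miR-451, miR-144 and miR-486 were each highest at E90, with miR-451 at 0.394%, 0.134% and 0.122%. Their part in the result was not tested. A few places carried much of this: the 5 places with the most reads held 45.8%, 67.7% and 67.2% of the predicted reads in the order of stages. Without those 5 the CPM were 933.3, 1299 and 475.6.

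The place on chromosome 5 at 5388503 to 5388598 was the only predicted hairpin among the 5 highest that appeared in all 3 libraries with reads on both arms and resembled no named miRNA. It carried 3312.5, 2314 and 3885.5 reads from E90 through P30d to P7y, or 358.4, 638.7 and 391.7 CPM. Its log2 ratios were 0.83 from E90 to P30d (0.76 to 0.91), -0.71 from P30d to P7y and 0.13 from E90 to P7y, all below the 2-fold limit used for a call. The arms changed order between libraries. The 3p arm led at E90, with 2494.5 reads against 818 on the 5p arm, and at P7y, with 3180.5 against 705, while at P30d the 5p arm held 1500 and the 3p arm 814. The 3p read was the same 21 nt sequence in each library, aTGCGGAAcctgcggatacgg with the seed in capitals, and 15.6% of all reads at the place had a mismatch to the genome.

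The highest single value belonged to a place that P30d alone listed. A window on chromosome 14 from 32286946 to 32287206 held 3208 reads at P30d, or 885.5 CPM, with 3157 reads on the 5p arm. The named hairpin mir-6240 lay within 10000 bases of this window without overlapping it. The deposited structure at the window did not meet the criteria given in the file header. The reads called 5p and 3p overlapped each other, so they do not make a duplex. Other places listed at P30d alone were the chromosome 16 hairpin with 638 reads, a hairpin at chr2:19684537-19684629 (-) with 965 reads that all had a mismatch, and a hairpin at chr9:65076869-65077026 (+) with 529. A mitochondrial window from 607 to 886, made of a short tandem repeat, held 782 reads at P30d and 47 at P7y and was not listed at E90. The named hairpin mir-1973 lay within 10000 bases of it. The chromosome 7 hairpin at 69920240 to 69920314 held 7, 244 and 8 reads. Of the 10 places with the highest level in any library, 4 were thus listed at P30d alone, in the library with the fewest reads.

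**Figure D2:**
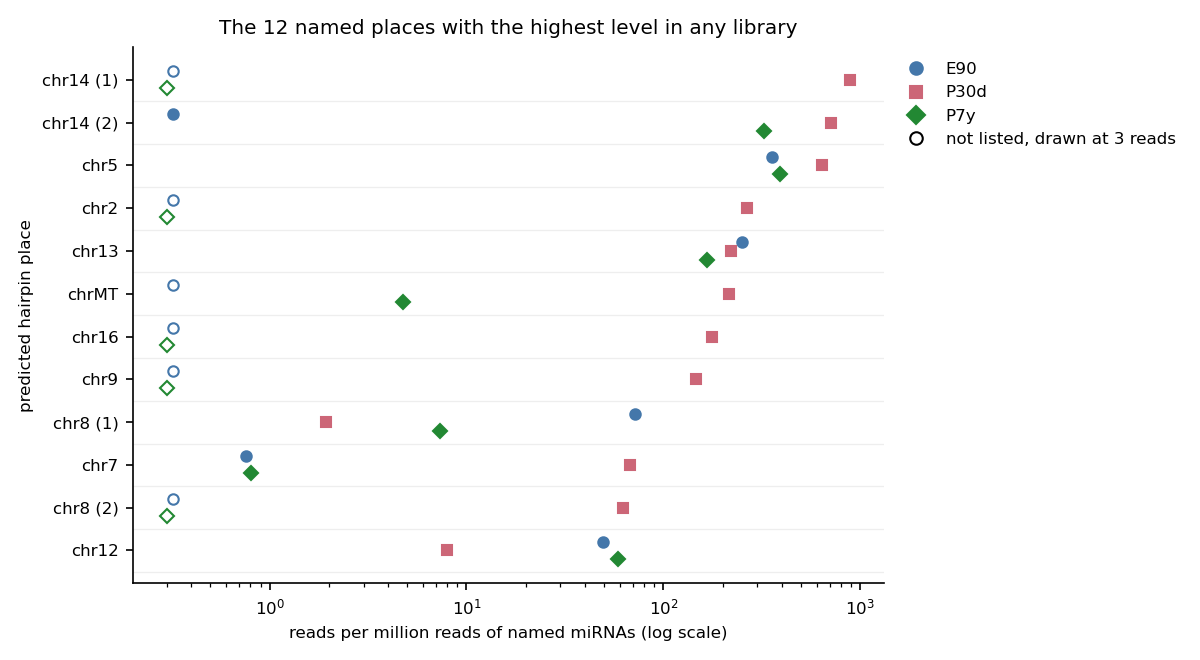
Level of the 12 named places with the highest value in any library, in reads per 1000000 reads of named miRNAs on a log scale, 1 point per library; open points are places a table does not list, drawn at 3 reads. Rows run from the highest value down, with chromosome 14 at 32286946 first and at 133619219 second, and only the chromosome 5 and 13 places stay above 100 CPM in each library.

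Some places went against the label of hairpins without a known miRNA. At 16 places the window overlapped that of a named hairpin on the same strand, and at a further 41 the leading read matched a named miRNA with at most 2 mismatches over 16 nt or more. The hairpins themselves, as positioned here, overlapped at 12 of the 16. The 16 places held 17.03%, 23.9% and 35.4% of the predicted reads at E90, P30d and P7y, and 6 of them appeared in all 3 libraries. The 41 held 5.004%, 2.62% and 3.54%. The other 1583 places resembled no named miRNA by this measure and held 78.0%, 73.5% and 61.0% of the predicted reads.

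The largest of the overlapping places lay at mir-6715a. The chromosome 14 place held 3 reads for E90, 2583 for P30d and 3219 for P7y, that is 0.325, 712.9 and 324.5 CPM, so E90 lay far below both later libraries. Rows that carry the name mir-6715a at this place held 0, 10 and 13 reads, so nearly all its reads sat in the predicted group. The leading 3p read, cCAAACCAgttgtgcctgtagt, matched the named miR-6715a-3p at all 19 nt compared, and its last base differed from the hairpin (A22T, counted from the read's 5′ end). The 5p arm held 1535 reads at P30d and 321 at P7y, and the 3p arm 1048 and 2898, so the leading arm changed here too. The representative 5p read was not the same in these libraries. At P7y it differed from the hairpin inside the read (T15G). Of the 5p reads, 64.2% had a mismatch at P7y, against 5.21% at P30d. Whether this altered the read number of the 5p arm was not tested. The log2 ratio was 11.10 from E90 to P30d (9.55 to 13.38) and -1.14 from P30d to P7y (-1.21 to -1.06). The call from P30d to P7y was lost with other scalings, at -0.18 with TMM factors and -0.52 with DESeq2 size factors.

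The chromosome 13 place held 2309, 798 and 1645 reads, all on the 5p arm and all with a mismatch. It lay at mir-26a-1, of the miR-26 family, which is abundant in many tissues. The leading read tTCAAGTAacccaggataggctt was the same in each library and differed from the hairpin and from a named miR-26 by G23T, its last base. Its levels were 249.8, 220.3 and 165.8 CPM, and no ratio was called. On the X chromosome 3 places sat at mir-506, mir-507 and mir-508, a cluster known mainly from testis. The mir-507 place held 167, 40 and 80 reads, the mir-506 place 13, 8 and 5, and the mir-508 place 6 at E90 and 4 at P7y. Another X place, at mir-500, held 138, 13 and 7 reads, all with a mismatch. The place at mir-1388, on an unplaced scaffold, held 46, 22 and 84, and that at mir-802, a miRNA known from liver, was not listed at E90 and held 7 and 20.

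Reads on both arms were uncommon among predicted hairpins. Both arms carried a read at 70 of the E90 places (5.80%, 4.55 to 7.28), 73 of the P30d places (26.0%, 21.0 to 31.5) and 18 of the P7y places (4.77%, 2.85 to 7.44). The named hairpins with a genome place had both arms at 39.2%, 42.6% and 35.6%. Over the libraries joined, 127 of 1640 places (7.74%) had both arms in at least 1 library, against 81.2% of known pig hairpins. The share went with the number of libraries: 5.11% of places in 1 library, 26.8% of 82 places in 2 and 40.8% of 71 places in 3. Both arms in any 1 library were enough, so places in more libraries had more chances to count. It also went with reads, at 2.29%, 6.63%, 22.3% and 47.6% in the classes of 1 to 2, 3 to 9, 10 to 99 and 100 or more. Named hairpins with a genome place had 0%, 14.5%, 22.2% and 74.0% in these classes. Predicted hairpins were thus like named hairpins with a genome place at 10 to 99 reads. Known pig hairpins had both arms at 0% of 7, 0% of 4, 45.8% of 24 (25.6 to 67.2) and 90.5% of 189 in these classes. The likeness therefore did not extend to them at 10 to 99 reads. The last class has no upper limit and was not matched in depth. Requiring 3 reads on each arm left 2.93% of places.

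Several places carried a distinct read on each arm. The chromosome 2 hairpin at 151102722 to 151102821 held 56, 63 and 86 reads at E90, P30d and P7y, with 11 reads of the 3p strand at P30d and again at P7y. Its leading 5p read began at a different base in each library, while the 3p read, tAAGCAGCaaggttgtctgtct, was the same in both libraries that listed it. The X hairpin at 53138299 to 53138398 held 91, 26 and 69 reads with the same 5p read, cACAACTCtgggaagtaccattt, in each library. Its reads lay mostly on the 5p arm, with 6 on the 3p arm at E90 and 1 at P30d. The chromosome 3 hairpin held 133.5, 38 and 30 reads, with 73.5, 27 and 19 on the 5p arm and 60, 11 and 11 on the 3p arm. The opposite strand was listed too at this hairpin, and its leading read was also found at 1 other place. Its reads therefore cannot be assigned to this place alone. The chromosome 14 hairpin at 138325831 to 138325913 held 260, 26 and 34 reads and changed its leading arm, with 255 of its reads on the 3p arm at E90 and 33 on the 5p arm at P7y. The log2 ratios of the X hairpin ranged from -0.50 to -0.05, and none was called.

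Duplex ends and 5′ starts were less regular than at known pig hairpins, while the share of reads taken by the representative read was higher. Where both arms could be set against the deposited fold, 39 of 111 predicted rows (35.1%, 26.3 to 44.8) had 3′ overhangs of 1 to 3 nt at both ends of the duplex, against 301 of 451 (66.7%, 62.2 to 71.1) at pig miRNA hairpins. These rows are of single libraries, so a hairpin can count more than once, and the intervals treat such repeats as independent. Counted by place, such overhangs were found at 30 of 80 predicted places. They were found at 17 of 27 places listed in all 3 libraries, 5 of 16 in 2 and 8 of 37 in 1. The chromosome 5 hairpin, the mir-6715a place, the X hairpin and the chromosome 3 hairpin were among the places with such overhangs. Counted again by library, the reads touched or overlapped in 10 of 160 predicted rows with both arms, against 2 of 466 pig rows. The 5′ start was the same in every library for 106 of 144 predicted arms listed more than once (73.6%, 65.6 to 80.6) and for 325 of 373 pig arms (87.1%, 83.3 to 90.4). On arms of 10 reads or more, the representative read made up a median of 62.5% of the arm's reads at 309 predicted arms and 32.8% at 929 pig arms. These arms were not matched in read number beyond this minimum, and the overhangs and 5′ starts were compared without any match in read number. Copies are whole counts and an arm's reads can be divided between hairpins, so copies can exceed reads. At chr2:66115859-66115931 (+) there were 331 copies and 207.5 reads at E90.

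Predicted reads were shorter and more spread in length. The representative read was 20 to 24 nt long on 63.3% of E90 arms (60.6 to 66.0), 70.6% of P30d arms (65.6 to 75.3) and 60.8% of P7y arms (55.8 to 65.6), against 95.3%, 95.7% and 95.2% at known pig hairpins. Reads of 16 to 19 nt made up 33.2%, 21.5% and 34.2% of predicted arms. Weighted by reads the 20 to 24 nt share was 80.7%, 82.0% and 82.9%, so the arms with many reads were nearer to miRNA length. By recurrence, the leading read had this length at 59.2% of places in 1 library, 80.5% in 2 and 80.3% in 3. The median free energy, as deposited, was -29.8, -41.5 and -44.8 kcal per mol in that order. These energies are not adjusted for length, and the median hairpin length rose too, at 83, 88.5 and 96 nt. The median of the deposited index of folding energy was 0.7, 0.8 and 0.8, the same for places in 2 and in 3 libraries. The deposited structure criteria were met at 86.1%, 93.9% and 100% of places. A place counted as meeting them where any of its rows did, so part of this rise is built into the measure. Read number, recurrence and read length moved together, and their parts cannot be told apart here.

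**Figure D3:**
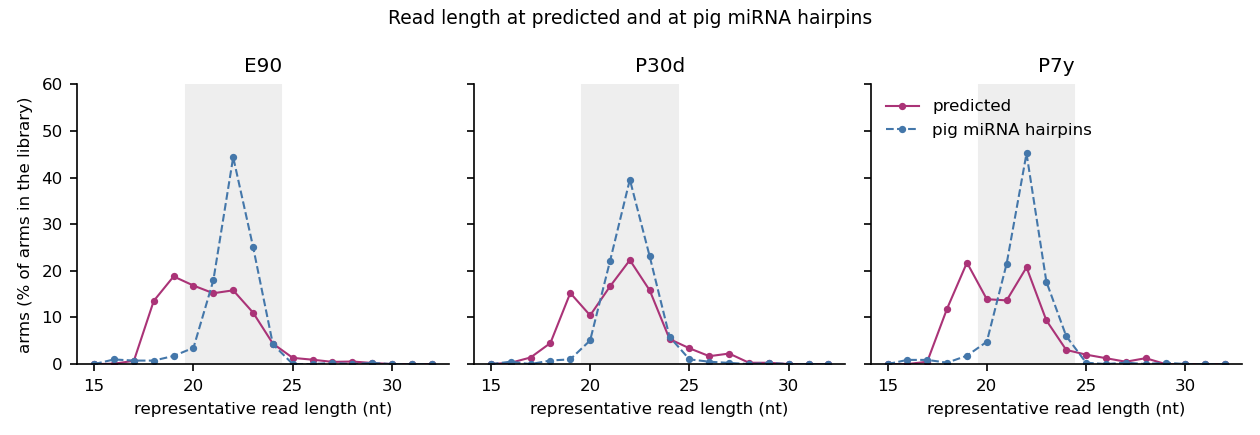
Length of the representative read of each arm in nt, as a percentage of arms in the library, for predicted hairpins and for hairpins of known pig miRNAs; the grey band marks 20 to 24 nt. Predicted arms were most often 19 nt long at E90 (18.8%) and P7y (21.8%) and 22 nt long at P30d (22.3%). Known pig arms were most often 22 nt long in each library. At E90, 33.2% of predicted arms were 16 to 19 nt long, against 4.24% of known pig arms.

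Reads with a mismatch to the hairpin were more frequent than at named miRNAs. Their share was 41.7% in E90 (40.9 to 42.5), 38.3% in P30d (37.5 to 39.1) and 47.3% in P7y (46.5 to 48.2), against 18.6%, 13.9% and 21.7% of the reads of named miRNAs. Places differed sharply: all reads had a mismatch at 341, 109 and 136 places, in the order of stages, and none had at 726, 88 and 189. The share was 73.8% at places that overlap a named hairpin and 89.5% at places whose read resembled one, but 28.8% at the other 1583. Without the places that overlap a named hairpin it was 31.4%, 33.9% and 30.1%, so P7y no longer had the highest value.

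The mismatch lay at the last base more often than at any other. Of 694 predicted arms whose representative read had 1 mismatch, 187 (26.9%) had it at the last base and 283 (40.8%) within the last 3. An A stood there in 88, a T in 80, a C in 10 and a G in 9. Named hairpins with a genome place were much alike, with 231 of 733 (31.5%) at the last base and 299 (40.8%) within the last 3. Added A and T at the 3′ end are known modifications of miRNAs, and whether these bases were added or came from the genome of these pigs was not tested. The other 411 arms had their mismatch further in, as at the chromosome 2 place from 5365914 and the chromosome 11 place from 1311190. Both had the leading read cGCGCGGTcgcccgggga. As the representative read at E90 it differed from the chromosome 2 hairpin by C8T, and as the representative read at P7y it differed from the chromosome 11 hairpin by G8T, counted from the read's 5′ end. It resembled the named mir-714-p3, with 1 mismatch over 17 nt. With at most 1 mismatch it also lay within hairpin sequences of the chromosome 6 region that the rule left out. The leading reads of 24 places (1.46%) did so. Such reads cannot be assigned to 1 place.

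**Figure D4:**
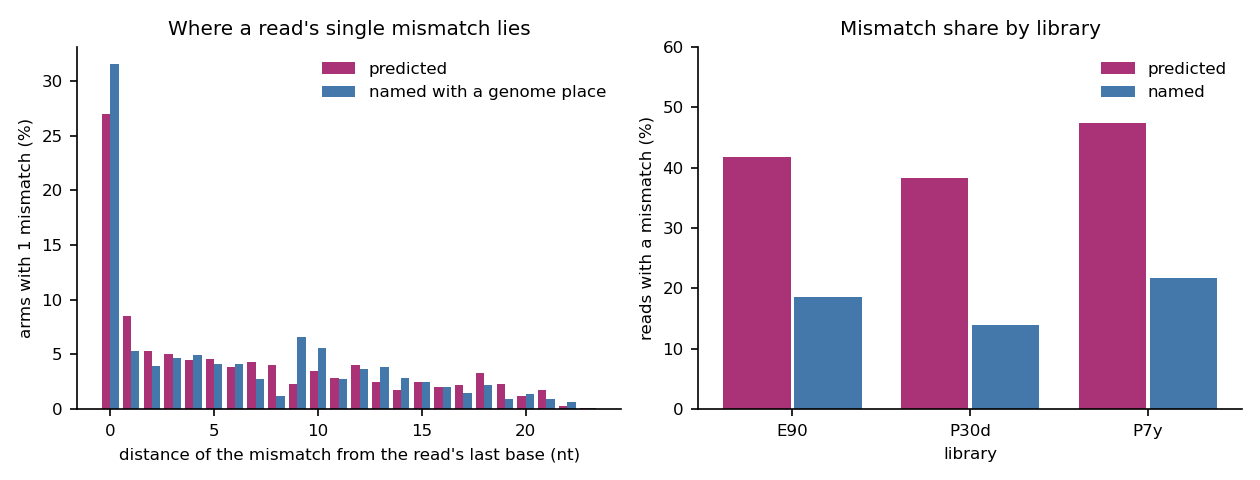
Left, distance of a representative read's single mismatch from the read's last base in nt, as a percentage of arms with 1 mismatch, for predicted and named hairpins. Right, share of all reads with a mismatch in each library, where predicted hairpins lie at 38.3 to 47.3% and named at 13.9 to 21.7%.

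Levels were compared between libraries for the 102 predicted places with a mean of 1 CPM or more, among 637 hairpins tested. The other 1538 places were too low, and 26 of the 102 were listed in 1 library only, so those had to differ. A place was called where the log2 ratio was 1 or more in size and its exact conditional interval left out 0. A place not listed entered as 3 reads. From E90 to P30d, 34 places (33.3%) were higher and 25 (24.5%) lower, where 30.6% of all hairpins were higher and 34.4% lower. From P30d to P7y, 13 (12.7%) were higher and 51 (50%) lower, against 16.5% and 48.2% of all hairpins. From E90 to P7y, 12 (11.8%) were higher and 41 (40.2%) lower, against 15.5% and 46.3%. Other scalings changed the balance of the later pairs: from P30d to P7y, 20 places were higher and 35 lower with TMM factors and 18 and 41 with DESeq2 size factors, and from E90 to P7y 23 and 27, and 22 and 33. The median log2 ratio of the places was -0.15, -1.33 and -1.03, in that order of pairs, and that of all hairpins -0.26, -1.14 and -1.07. Among places listed in both libraries of a pair, 16 of 70 were higher and 16 lower, 8 and 20 of 56, and 7 and 24 of 58. The matching shares of all hairpins, under the other scalings or listed in both libraries, are not given here. These counts were therefore not compared with all hairpins. The 3 pairs share libraries and are not independent of each other.

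Places without a named counterpart also differed between libraries. The chromosome 8 hairpin at 122371900 held 662, 7 and 73 reads, all of them on the 3p arm and 2.56% with a mismatch, with the read tCTGTGAActagaaacctctgg in each library. E90 was the highest and P30d the lowest, at 71.6, 1.93 and 7.36 CPM, with a log2 ratio of -5.21 from E90 to P30d (-6.53 to -4.16) and 1.93 from P30d to P7y (0.81 to 3.29). The chromosome 2 hairpin at 7444698 showed the same order with a smaller span, at 493, 43 and 283 reads and 53.3, 11.9 and 28.5 CPM, with the read tTTGTTGGctcctctgaagtga leading in each. The chromosome 14 hairpin at 121669988 held 504, 52 and 105 reads, or 54.5, 14.4 and 10.6 CPM. Its log2 ratio from P30d to P7y was -0.44 (-0.93 to 0.07) and was not called. TMM factors and size factors moved ratios of this pair by 0.96 and 0.62, so P30d and P7y are not ranked at this hairpin. The chromosome 5 hairpin at 109259469 held 219, 50 and 13, and its ratio from E90 to P7y was -4.18 (-5.11 to -3.37). A pair of places on chromosomes 12 and 8, at 14862199 and 133590838, shared the same reads and were highest at P7y, at 34.5, 23.5 and 257 reads on the first. Reads divided between such copies cannot be assigned to either place.

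Several places carried letters of transfer RNA. A hairpin at chr12:23443372-23443480 (+) held 456, 29 and 583 reads, and its leading read aTTCCCGGccaacgcacca ends like a glycine tRNA with the CCA that mature tRNAs carry. The chromosome 11 hairpin shown above was listed at E90 alone with 130 reads, of which 123 lay on the 3p arm. Its 5p arm held 7 reads, all with a mismatch, and the 5p read starts like a glutamate tRNA. The leading read of a hairpin at chr10:56773579-56773687 (-), listed at P7y alone with 169 reads, starts like a glycine tRNA. Leading reads that end in CCA were found at 32 places (1.95%). The B box, the internal promoter motif of tRNA genes, searched as GTTCGANNC on both strands, lay in 18 of 1640 predicted hairpins (1.10%) and in 17 of 758 named hairpins (2.24%). A match says only that these letters are present.

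The places were spread over the genome. Chromosome 1 held 150, chromosome 2 120 and the X chromosome 68, and 161 (9.82%) lay on unplaced scaffolds. Another predicted place lay within 10000 bases at 127 places, and the opposite strand was listed too at 50. Groups of 3 or more places within 10000 bases were found on chromosomes 1, 2, 6, 12 and X, the last at mir-506 to mir-508. The group on chromosome 2 from 5806932 to 5815878 held 4 places, of which 3 were listed at E90 alone with 18, 30 and 20 reads, each on both arms. The leading read was also found at another place for 319 places (19.45%). A stretch of 15 bases found at 5 or more places marked 41 places. One of the 3 most common, agtgggttaaggatc at 8 places, is known from the pig's short interspersed repeat PRE-1, and 4 of the 41 appeared in 2 or 3 libraries. Whether hairpins lay in exons, introns or intergenic sequence was not analysed here.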

How the data were processed

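Each library has 1 table, in which the authors gave every arm of a hairpin its own row. Per the file headers, reads were mapped to known mammalian miRNA hairpins and to the pig genome, and hairpins that held reads but no known miRNA formed the last group. The deposited reads of an arm are expected counts, because a read that fits several hairpins was split between these, and the deposited numbers of reads without and with a mismatch are of the same kind. The deposited numbers of reads per hairpin and of copies of the representative read are counts. The deposited GC content is a percent, and the deposited folding energy and its index are scores. The submitters' processing notes name Sscrofa 10.2 as the build. Not given in the sources used here are the aligner, the trimming and the filter on low reads.

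Rows were joined into places where windows overlapped by 1 base or more on the same strand. Windows were the representative read with 120 bases on each side, and hairpin positions were computed from them. A position was kept only inside its window, and all 42 hairpins seen in more than 1 window gave a single position. Expected counts were summed per place, rounded to whole numbers for intervals of ratios, and scaled per 1000000 reads of named hairpins. Shares have exact Clopper-Pearson 95% intervals and ratios exact conditional binomial ones. No p-value is given. A place not listed was entered as 3 reads for the size of a ratio. Leading reads were compared with named miRNAs over at least 16 bases, with at most 2 mismatches and an offset of at most 4. Named places were the 10 with the highest CPM, up to 15 listed in all libraries with 10 reads or more, up to 15 with both arms and 10 reads or more, and the 5 largest ratios in each direction of each pair, with their neighbours within 10000 bases. The members and lists were chosen with earlier results of these data known. The alternatives were other overlaps, read minimums, strands, denominators, weightings, filters and scalings, and a group added after seeing the data. Tables were handled with pandas 2.3.3 in Python 3.11.15, intervals with SciPy 1.17.1 and NumPy 2.4.6, and plots with matplotlib 3.10.9. TMM factors came from edgeR 4.0.16 and size factors from DESeq2 1.42.0, in R 4.3.3. The ratio calls were tested on simulated data. Among 547 hairpins with Poisson counts at the totals of E90 and P30d, 87 of 100 changes of 1.5 on the log2 scale and 95 of 100 changes of 3 were recovered, and 1 of 347 unchanged hairpins was called.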

Additional observations from a re-analysis of the deposited data

Results flagged for a closer look

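The predicted rows that the rule left out held many more reads than the 1640 places in some libraries. On chromosome 6 from 860000 to 880000 they held 5227 reads for E90, 135632.5 for P30d and 96 for P7y. On the scaffold of mir-483 they held 141789.5, 1959 and 398. They were singled out because they lie outside the places compared here and exceed the 3 reads that a count of 0 allows.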

How the results depend on the processing

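No paired analysis was possible because each stage had 1 library, and for the same reason no library could be left out. Joining rows at 50% overlap gave the same 1640 places, and 1624 overlapped no named hairpin. A minimum of 10 reads left 230 places, of which 50% appeared in 2 or 3 libraries and 26.96% had both arms. Both-arm support was 2.93% with 3 reads on each arm and 5.95% over rows that met the structure criteria. Per 1000000 reads of all groups, predicted hairpins held 1691 at E90 and 3860 at P30d. With all predicted rows CPM were 17626, 42000 and 1499 at E90, P30d and P7y. Without the 5 places with most reads they were 933.3, 1299 and 475.6, and without places overlapping a named hairpin 1428, 3060 and 935.7. The mismatch share at E90 was 44.2% for places of 10 reads or more. The median over places was 0% for E90, 46.2% for P30d and 0% for P7y. Without the 5 leading places the mismatch share was 49.5% at P30d and 38.2% at P7y, and without overlaps with named hairpins it was 31.4%, 33.9% and 30.1%. Weighted by reads, 80.7%, 82.0% and 82.9% lay at 20 to 24 nt.

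Scaling changed the balance of ratios. TMM factors moved all log2 ratios by 0.24 from E90 to P30d, 0.96 from P30d to P7y and 1.19 from E90 to P7y, and size factors by 0.27, 0.62 and 0.89. From P30d to P7y, 20 places were higher and 35 lower with TMM and 18 and 41 with size factors, and from E90 to P7y 23 and 27, and 22 and 33, against 12 and 41. The mir-507 place (chrX:137160634-137160896) turned from -1.16 to 0.031 from E90 to P7y with TMM. At a mean of 10 CPM, 23 places were left, with 10 higher and 6 lower, 5 and 12, and 5 and 7 in the 3 pairs. With no filter there were 90 and 35, 22 and 106, and 134 and 145. With reads without a mismatch only, 62 places were tested and 16 were higher and 20 lower, 8 and 27, and 6 and 27. The share of all hairpins called is not given for these settings. The cause of these changes was not tested beyond the smaller or larger number of places tested. Of 67 ratios of named places, 61 kept their call with TMM, 5 kept their direction only and 1 reversed, and with size factors 63 kept their call and 4 their direction only. With reads without a mismatch, 50 kept their call and 1 its direction only. The filters leave the ratio of a place as it is by construction. The alternatives without named overlaps, without the 5 leading places and on the structure criteria were chosen after seeing the data. Predicted reads were few, so a difference below a few reads was not detectable at this depth.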
